A study of Mus musculus with 14 samples.

Results

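Ibsp, Spp1, Dmp1 and Mepe encode the acidic bone matrix proteins bone sialoprotein, osteopontin, dentin matrix protein and matrix extracellular phosphoglycoprotein. They are members of the small integrin-binding ligand N-linked glycoprotein (SIBLING) family, taken here by their gene symbols, 4 of 24346 genes in the table of read counts. The family has a further member, Dspp, whose product belongs mainly to dentin, and its values are given beside the others. Polyadenylated RNA came from MC3T3-E1 cells, a clonal line of osteoblast precursors from mouse calvaria, in 14 libraries. The libraries labelled MACF1 knockdown numbered 2 on day 0, 2 on day 3, 2 on day 5 and 1 on day 10, and the libraries labelled control had the same numbers at the same days. MACF1 is a large protein that links actin filaments and microtubules. The same line served all 8 groups. The titles mark the libraries labelled knockdown as sh and the control libraries as NC, without spelling these out. Beyond those marks, the agent of the knockdown, the culture medium and the event from which the days are counted cannot be read from the labels.

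SIBLING proteins are secreted by cells that make mineralized tissue, carry many phosphate groups and acidic residues, and hold an Arg-Gly-Asp (RGD) motif that integrins bind. Bone sialoprotein binds collagen and can start the growth of apatite crystals, whereas osteopontin and the acidic peptide cleaved from matrix extracellular phosphoglycoprotein hold crystal growth back. Dentin matrix protein is made mainly by osteocytes, the cells embedded in bone, and is cut by proteases into fragments that stay in the matrix. In culture, Ibsp is widely used as a marker of osteoblasts that have begun to differentiate.

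The 4 genes lay on the same strand of chromosome 5 within 238.4 kb. In GENCODE M21 coordinates of GRCm38, Dmp1 (ENSMUSG00000029307.7) covered chr5:104202613-104214102 with 6 exons. Ibsp (ENSMUSG00000029306.8) followed 85.1 kb downstream at chr5:104299171-104311469 with 7 exons. Mepe (ENSMUSG00000053863.3) began 13.9 kb beyond it, at chr5:104325329-104338611, with 3 exons. Spp1 (ENSMUSG00000029304.12) was the last, 96.5 kb further, at chr5:104435118-104441050, with 7 exons. Dspp (ENSMUSG00000053268.7, chr5:104170712-104180127) ended 22.5 kb before Dmp1. A second annotated gene, Gm42793, overlaps Spp1 on the same strand, so reads of the pair may not have been told apart. No gene of the annotation overlapped Ibsp, Dmp1 or Mepe.

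The promoters are shown because the 4 neighbouring genes did not all take the same course, as described further on. Each sequence is the 250 bases before the RefSeq start on the plus strand (RefSeq, GRCm38.p6), printed 5′ to 3′. Capitals mark the CCAAT box (CCAAT or, on the other strand, ATTGG) and the core of the RUNX binding site (ACCACA or TGTGGT).
Ibsp, chr5:104299037-104299286: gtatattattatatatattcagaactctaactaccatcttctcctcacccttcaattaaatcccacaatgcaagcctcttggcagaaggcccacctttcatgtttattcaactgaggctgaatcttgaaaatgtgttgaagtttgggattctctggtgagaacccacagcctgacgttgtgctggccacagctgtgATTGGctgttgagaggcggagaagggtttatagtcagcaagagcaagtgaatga
Spp1, chr5:104434861-104435110: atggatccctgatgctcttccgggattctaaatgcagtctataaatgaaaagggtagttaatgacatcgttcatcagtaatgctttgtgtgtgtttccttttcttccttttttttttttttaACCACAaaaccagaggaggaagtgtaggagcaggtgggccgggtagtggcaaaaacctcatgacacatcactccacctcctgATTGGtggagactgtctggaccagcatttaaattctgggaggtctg
Dmp1, chr5:104202367-104202616: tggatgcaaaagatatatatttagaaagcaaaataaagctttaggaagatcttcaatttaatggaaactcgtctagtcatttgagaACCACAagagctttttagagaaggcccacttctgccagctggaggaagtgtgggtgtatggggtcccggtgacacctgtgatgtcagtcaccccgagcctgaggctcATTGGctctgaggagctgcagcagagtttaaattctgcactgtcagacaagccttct
Mepe, chr5:104325079-104325328: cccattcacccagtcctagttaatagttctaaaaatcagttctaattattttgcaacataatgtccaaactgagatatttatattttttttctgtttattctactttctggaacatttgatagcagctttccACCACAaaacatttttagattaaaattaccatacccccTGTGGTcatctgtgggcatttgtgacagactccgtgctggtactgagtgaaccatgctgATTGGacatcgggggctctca

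All 4 windows held 1 CCAAT box in the ATTGG orientation, against 33.85% of the 32851 promoter windows of the same table with a match on either strand. Its first base lay 54 bases before the start in Ibsp, 46 in Spp1, 57 in Dmp1 and 21 in Mepe. The RUNX core occurred once in Spp1, 128 bases before the start, and once in Dmp1, 164 bases before it. Mepe held it at 118 and at 80 bases before the start. The Ibsp window held no match of these 6 letters, and 14.05% of all windows held one. A TATA-like TATAAA (or TTTATA) stood 28 bases before the start in Ibsp, and TTTAAA stood at 20 bases in Spp1 and 31 bases in Dmp1; these were present in 12.37% and 12.08% of all windows. The window of Spp1 also held TATAAA or TTTATA at 211 bases and that of Mepe at 173 bases. TGACG (or CGTCA) occurred only in Ibsp among the 4 (17.77% of all windows), TAATTA only in Mepe (4.84%), and TGANTCA (6.749%) and CACGTG (6.021%) in none. These matches describe letters in the window and are no evidence of binding. The RefSeq start of Ibsp lay 116 bases downstream of the GENCODE start used for its coordinates, so its window covers a different stretch than one taken from GENCODE would.

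The libraries held 8044687 to 23301514 counts each, and the 13130 genes tested had 10 counts or more in 2 libraries or more. Ibsp, Spp1 and Dmp1 passed this filter with large counts. Mepe passed only through 2 control libraries with 15 and 11 counts, and Dspp did not pass. Control day 3 replicate 2, the shallowest library, stood apart: the correlation of log2 CPM between the replicates was 0.928 in that group and 0.993 to 0.994 in the 5 other pairs, and values of the 4 genes that rest on it are given with and without it. CPM are counts scaled to a common library size after TMM scaling. Macf1 itself, the gene named by the labels, had 157 and 163 CPM on day 0, 172 and 170 CPM on day 3, 169 and 181 CPM on day 5 and 129 CPM on day 10 in the libraries labelled knockdown. It had 154 and 160, 189 and 55.2, 176 and 205, and 196 CPM in control libraries at the same days. It did not pass the test at any replicated day (log2 fold change 0.03, 0.48 and −0.12, adjusted p 0.983, 0.447 and 0.918; on day 3 −0.15 and 0.398 without control day 3 replicate 2), so the RNA gives no check of the labels, and the libraries are called by their labels throughout. The 8 osteoblast markers examined, of which Ibsp is 1, each averaged at least 5 CPM over the libraries. Without Ibsp their sum was 9168 to 19416 CPM in libraries labelled knockdown and 12748 to 21277 CPM in control libraries, and Alpl ranged from 0.209 to 156 CPM over the libraries. Of 8 monocyte, macrophage and osteoclast markers, 7 averaged under 1 CPM, and the exception was Ctsk; the sum of the 8 was 40.5 to 169 CPM in libraries labelled knockdown and 41.7 to 117 CPM in control libraries. The 5 endothelial markers summed to at most 3.49 CPM. The chondrocyte markers, led by Sox9 and Col2a1, summed to 216 to 343 CPM in libraries labelled knockdown and 148 to 369 CPM in control libraries. The epithelial markers moved with the condition. Of 4 listed, Epcam had no row, Krt5 averaged under 1 CPM, and Cdh1 and Krt14 brought the sum to 9.87 to 51.7 CPM in libraries labelled knockdown, against 0.643 to 7.76 CPM in control libraries. The part of the cells behind these markers in the results below was not tested. In bulk RNA, fewer cells expressing a gene and less RNA of it per cell cannot be told apart.

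Ibsp was lower in the libraries labelled knockdown on each of the 3 replicated days, by 5.96-fold to 21-fold, while its level rose in both conditions between days 0 and 3. Ibsp had 1.47 and 2.71 CPM on day 0, 92.3 and 73.5 CPM on day 3, 397 and 350.0 CPM on day 5 and 123 CPM on day 10 in libraries labelled knockdown. In control libraries it had 14.7 and 9.94 CPM on day 0, 1163 and 1038.5 CPM on day 3, 8394 and 7278 CPM on day 5 and 2064 CPM on day 10. At each day all libraries labelled knockdown lay below all control libraries. Even the highest libraries labelled knockdown, those of day 5, lay below the control libraries of day 3.

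The counts behind the lowest group were small, 27 and 39 reads on day 0 in libraries labelled knockdown against 232 and 143 in control. By the quasi-likelihood test of edgeR, with Benjamini-Hochberg adjusted p, Ibsp was 5.96-fold lower on day 0 (log2 fold change −2.58, 95% interval −3.30 to −1.85, adjusted p = 0.00113). It was 13.3-fold lower on day 3 (−3.73, −4.41 to −3.05, adjusted p = 0.000116). It was 21-fold lower on day 5 (−4.39, −5.09 to −3.69, adjusted p = 6.8e-05). Ibsp was thus among the genes called lower at each of the 3 replicated days, which made up 0.609% of the genes tested. On day 3 the call was lost when only the 2 groups compared were fitted (adjusted p = 0.108), and it held without control day 3 replicate 2 (−3.81, adjusted p = 2.82e-06).

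Spp1, the most abundant member on day 0, was higher in libraries labelled knockdown on days 0 and 3. In libraries labelled knockdown it had 4209.5 and 3817 CPM on day 0, 2239 and 2005 CPM on day 3, 2253 and 2128 CPM on day 5 and 5717 CPM on day 10. Control libraries had 1986 and 1754 CPM on day 0, 968 and 599 CPM on day 3, 3933 and 3409 CPM on day 5 and 7370.2 CPM on day 10. The libraries labelled knockdown lay above control on days 0 and 3 and below control on days 5 and 10, with no overlap at any of the replicated days.

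Spp1 was 2.15-fold higher on day 0 (log2 fold change 1.10, 0.55 to 1.65, adjusted p = 0.0243) and 2.71-fold higher on day 3 (1.44, 0.88 to 1.99, adjusted p = 0.00694). The day 0 value stayed at 1.10 without control day 3 replicate 2. The control pair of day 3 widened the spread shared by all groups. The common dispersion was 0.0474 with both libraries and 0.0115 without replicate 2, which leaves that group without a replicate. Leaving out replicate 1 instead also raised the number of genes called. Results without replicate 2 thus also lack this pair in the shared spread. On day 5 its log2 fold change was −0.74 (−1.29 to −0.20) and did not pass (adjusted p = 0.103). Under the replicate block, the number of the replicate as a term of the fit, the same day 5 difference passed (−0.74, adjusted p = 0.042), and without control day 3 replicate 2 it passed as well (−0.75, adjusted p = 0.000768). The day 0 call was lost on leaving out either control library of day 0, either library labelled knockdown of day 0 or of day 5, or control day 5 replicate 1 (adjusted p 0.0503 to 0.205). Leaving out knockdown day 3 replicate 1 ended the day 3 call (adjusted p = 0.0589), as did a fit of only the groups compared (adjusted p = 0.343). The day 3 value was 1.13 without control day 3 replicate 2 (adjusted p = 0.000512).

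Dmp1 had the largest excess in libraries labelled knockdown on day 0 among the 4 genes. Dmp1 had 128 and 107 CPM on day 0, 63.0 and 51.7 CPM on day 3, 75.4 and 65.3 CPM on day 5 and 176 CPM on day 10 in libraries labelled knockdown. In control libraries it had 14.5 and 11.8 CPM on day 0, 20.1 and 12.5 CPM on day 3, 129 and 120 CPM on day 5 and 117 CPM on day 10. The libraries labelled knockdown lay above control on days 0 and 3, below it on day 5 and above it again on day 10.

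Dmp1 was 8.91-fold higher on day 0 (log2 fold change 3.16, 2.58 to 3.73, adjusted p = 7.95e-05) and 3.47-fold higher on day 3 (1.80, 1.24 to 2.35, adjusted p = 0.00216). On day 5 its log2 fold change was −0.82 (−1.35 to −0.29, adjusted p = 0.0657). The day 5 difference passed under the replicate block (−0.83, adjusted p = 0.0165) and without control day 3 replicate 2 (−0.83, adjusted p = 0.000747). The day 3 call was lost with only the groups compared (adjusted p = 0.216), and without control day 3 replicate 2 it was 1.51 (adjusted p = 0.000233).

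Mepe was nearly absent, at 0 to 15 counts per library. The libraries labelled knockdown had 0 and 0 counts on day 0, 0 and 1 on day 3, 2 and 2 on day 5 and 1 on day 10. The control libraries had 0 and 4 counts on day 0, 15 and 7 on day 3, 11 and 8 on day 5 and 7 on day 10. The groups overlapped on day 0 and did not overlap on days 3 and 5.

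Over all days Mepe had 6 counts in 7 libraries labelled knockdown (exact Poisson 95% interval 2.20 to 13.1), 3 of them at 0. It had 52 counts in 7 control libraries (38.8 to 68.2), 1 of them at 0. Relative to library size, the ratio of the libraries labelled knockdown to control was 0.0300 on day 3 (0.000726 to 0.185), 0.167 on day 5 (0.0414 to 0.504) and 0.162 on day 10 (0.00359 to 1.26). These intervals compare the libraries' reads and cover counting error only. The edgeR fit gave Mepe an adjusted p of 0.309, 0.0387 and 0.194 on days 0, 3 and 5. Since the gene entered the fit only through control libraries, where it was high, these values are given as a description and Mepe is not counted among the genes called. The day 3 value was above 0.05 on leaving out knockdown day 3 replicate 1 or 2 (adjusted p 0.204 and 0.122), and without any of 5 other libraries, namely both libraries labelled knockdown of day 0, both of day 5 and control day 5 replicate 2 (adjusted p 0.0541 to 0.0689). It was 0.031 without control day 3 replicate 2. Dspp had 1 count in the knockdown day 10 library and 0 in the 13 others, and was not tested.

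**Figure D1:**
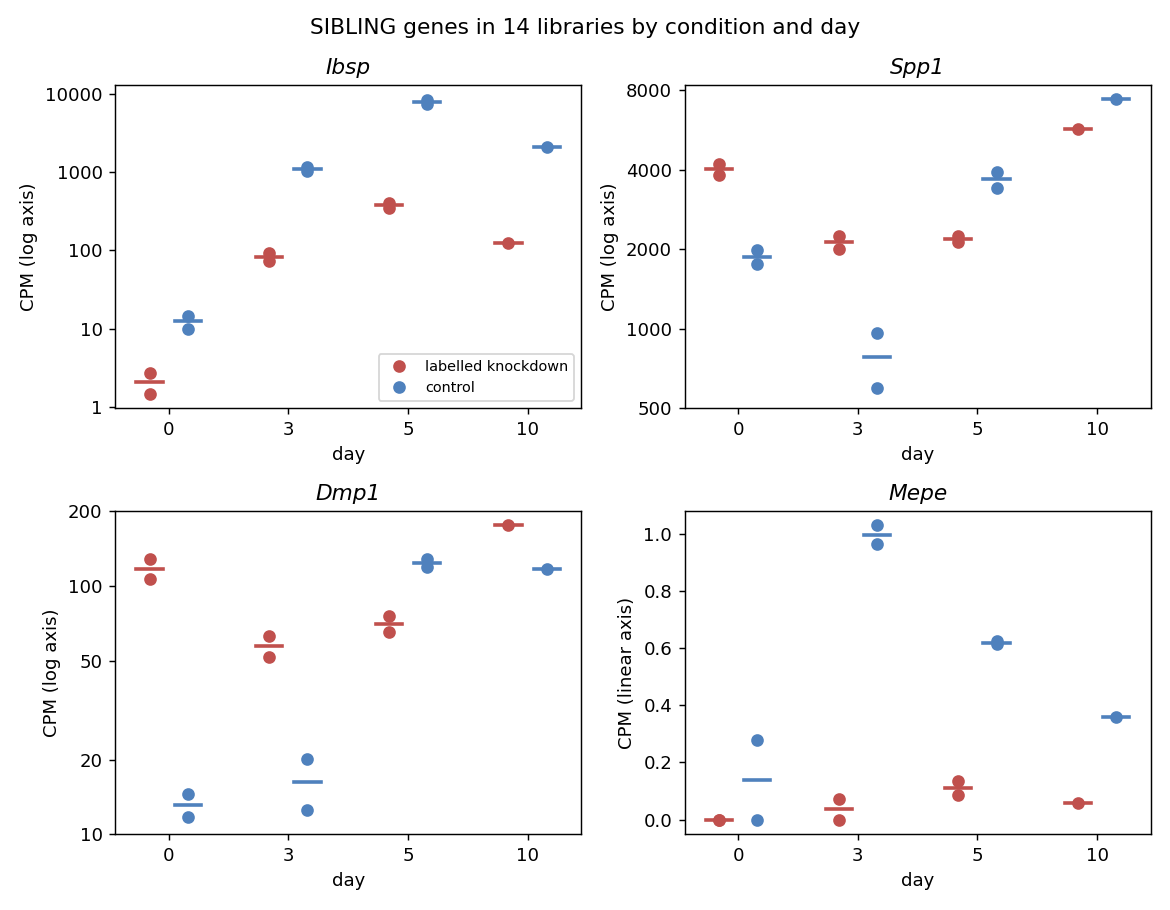
CPM of Ibsp, Spp1, Dmp1 and Mepe (vertical axes, logarithmic except for Mepe) in each of the 14 libraries by day, with libraries labelled knockdown left of control at each day and a bar at each group's mean. Ibsp of libraries labelled knockdown lies below control at all 4 days, whereas Spp1 and Dmp1 lie above control on days 0 and 3 and below it on day 5.

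The calls were read against the share of all genes called. On day 0, Spp1 and Dmp1 were called higher and Ibsp lower, where 7.09% of genes tested were called in either direction, 4.41% higher and 2.68% lower. On day 3, the same 3 genes were called in the same directions, where 12.6% were called, 7.06% higher and 5.52% lower. On day 5, Ibsp was the 1 gene of the 4 called, where 7.78% were called, 5.32% higher and 2.47% lower. Without control day 3 replicate 2 these shares were 28.7%, 21.0% and 31.5%. Groups that did not overlap were common among all genes: the libraries labelled knockdown both lay under the control libraries in 29.9%, 22.6% and 31.5% of genes on days 0, 3 and 5, and over them in 33.8%, 27.0% and 33.0%. Non-overlap alone therefore sets none of the 4 genes apart.

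The second question was how each gene changed with time within a condition. In control libraries, Ibsp rose 89.3-fold on day 3 against day 0 (log2 fold change 6.48, SE 0.35, adjusted p = 2.12e-05). It rose a further 7.12-fold on day 5 against day 3 (2.83, SE 0.29, adjusted p = 0.00182). These values were 6.57 and 2.75 without control day 3 replicate 2 (adjusted p 1.06e-07 and 0.000237). In libraries labelled knockdown, Ibsp rose 40.1-fold on day 3 against day 0 (5.33, SE 0.35, adjusted p = 9.92e-05). Its 4.5-fold difference between day 5 and day 3 there did not pass (2.17, SE 0.29, adjusted p = 0.0624), and it passed without control day 3 replicate 2 (2.16, adjusted p = 0.000831).

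Spp1 in control libraries fell on day 3 against day 0 (log2 fold change −1.25, SE 0.25, adjusted p = 0.0138) and rose 4.68-fold on day 5 against day 3 (2.23, SE 0.26, adjusted p = 0.00319). The fall on day 3 was lost when either control library of day 0 was left out (adjusted p 0.0939 and 0.0807). Both steps passed without control day 3 replicate 2, at −0.94 and 1.92 (adjusted p 0.00126 and 7.33e-05). In libraries labelled knockdown, the log2 fold change of Spp1 was −0.92 on day 3 against day 0 (adjusted p = 0.145; −0.91 and adjusted p = 0.000595 without control day 3 replicate 2). On day 5 against day 3 it was 0.05, with an interval of −0.50 to 0.59 (adjusted p = 1).

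Dmp1 in control libraries did not pass on day 3 against day 0 (log2 fold change 0.33, SE 0.25, adjusted p = 0.391). That value rested on the control pair of day 3: it was −0.08 without replicate 1 and 0.63, with an adjusted p of 0.0293, without replicate 2. Dmp1 then rose 7.53-fold on day 5 against day 3 (2.91, SE 0.26, adjusted p = 0.000524), or by 2.63 on the log2 scale without control day 3 replicate 2 (adjusted p = 2.29e-05). In libraries labelled knockdown, its log2 fold change was −1.03 on day 3 against day 0 (adjusted p = 0.0986). The replicate block gave −1.03 with an adjusted p of 0.0265, and leaving out control day 3 replicate 2 gave −1.02 with an adjusted p of 0.000539. Between day 5 and day 3 it was 0.29 (−0.23 to 0.82, adjusted p = 1). Mepe did not pass between days in either condition (adjusted p 0.0983 to 1).

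In control libraries, 2 of the 4 genes, Ibsp and Spp1, passed between day 3 and day 0, where 10.7% of all genes passed, 5.29% higher and 5.45% lower (26.0% in all without control day 3 replicate 2). Between day 5 and day 3, Ibsp, Spp1 and Dmp1 all rose, where 1.04% of all genes passed, 0.914% higher. In libraries labelled knockdown, Ibsp passed between day 3 and day 0 (0.906% of all genes), and none of the 4 passed between day 5 and day 3 in edgeR (0.0152% of all genes). At an unadjusted p under 0.05 the last comparison held 1 of the 4, Ibsp, and DESeq2 called Ibsp as well (adjusted p = 7.49e-14). Fitting only the groups compared ended the control calls of Ibsp and Spp1 at both steps and of Dmp1 at the second (adjusted p 0.0735 to 0.715).

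Whether the difference between conditions itself changed with the day was tested by the interaction. The joint test over days 0, 3 and 5 passed for Dmp1 (adjusted p = 0.00165) and Spp1 (adjusted p = 0.0284), where 0.998% of all genes passed (8.62% without control day 3 replicate 2). Both calls held without that library (adjusted p 1.76e-06 and 5.68e-05). It did not pass for Ibsp (adjusted p = 0.217) or Mepe (adjusted p = 0.747). For Ibsp this outcome changed on leaving out either control library of day 3, which leaves that group without a replicate.

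Between day 3 and day 5, the log2 difference between conditions of Dmp1 dropped by 2.62 (SE 0.34, −3.38 to −1.86, adjusted p = 0.0186). Dmp1 was the 1 gene of the 4 called there, where 0.107% of all genes passed, and it passed without control day 3 replicate 2 as well (−2.34, adjusted p = 0.000538). For Spp1 the same contrast was −2.18 (SE 0.35, −2.96 to −1.40, adjusted p = 0.0654), −2.20 with the replicate block (adjusted p = 0.0289) and −1.88 without control day 3 replicate 2 (adjusted p = 0.000802). For Ibsp it was −0.66 (SE 0.39, −1.52 to 0.20, adjusted p = 0.689), or −0.59 without control day 3 replicate 2 (adjusted p = 0.608).

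Between day 0 and day 3, no gene of the 4 passed the interaction in edgeR, where 0.289% of all genes did, 0.0914% lower (4.58% in all without control day 3 replicate 2). Ibsp (−1.15, SE 0.43, adjusted p = 0.385) and Dmp1 (−1.36, SE 0.34, adjusted p = 0.196) had an unadjusted p under 0.05, and DESeq2 called Dmp1 (adjusted p = 0.00995). Without control day 3 replicate 2, Dmp1 passed in edgeR (−1.65, adjusted p = 0.00227) and Ibsp did not (−1.22, adjusted p = 0.112). Spp1 stood at 0.33 (SE 0.35, adjusted p = 0.694), 0.03 without control day 3 replicate 2 and 0.72 without control day 3 replicate 1. Either omission leaves that group without a replicate.

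The joint call of Spp1 was lost on leaving out any of 10 libraries, all those of days 0, 3 and 5 other than the control pair of day 3 (adjusted p 0.0886 to 0.219). The day 3 to day 5 call of Dmp1 was lost without any of the same 10 libraries (adjusted p 0.0542 to 0.214).

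**Figure D2:**
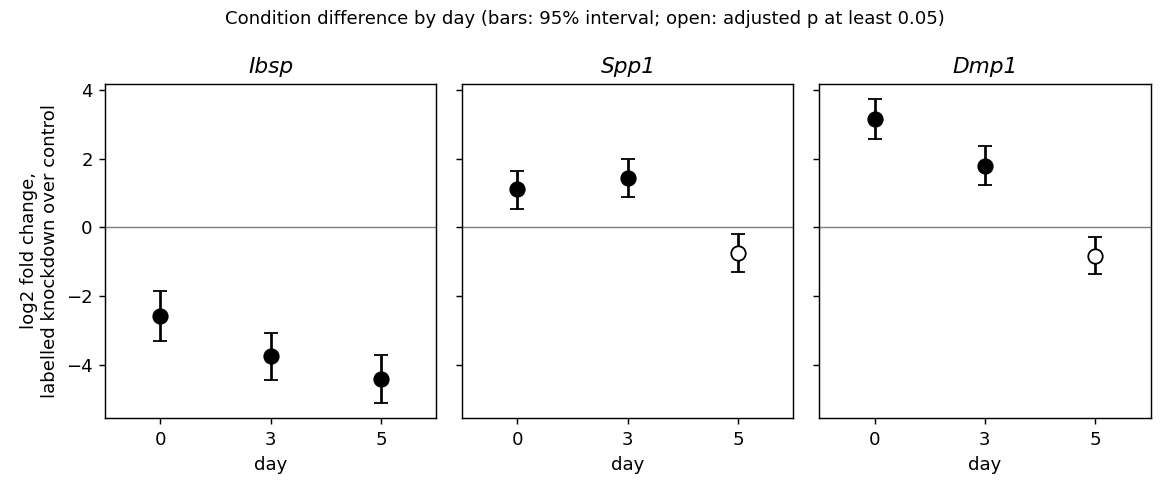
Log2 fold change of libraries labelled knockdown over control (vertical axis) on days 0, 3 and 5, with 95% intervals from the fit, for Ibsp, Spp1 and Dmp1, with open points for an adjusted p of 0.05 or more. The points of Ibsp stay below 0, at −2.58, −3.73 and −4.39, while those of Dmp1 (3.16, 1.80 and −0.82) and Spp1 (1.10, 1.44 and −0.74) cross it.

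On day 10 each condition had 1 library, so the difference has no replicate check. Ibsp was 16.8-fold lower in the library labelled knockdown, with 2121 counts (exact Poisson 95% interval 2032 to 2213) against 40275 in control (39883 to 40670.3). A difference of at least 4-fold in that direction, after adding 0.5 to each CPM, was found in 0.419% of the genes tested. Spp1 had 98410 counts in the library labelled knockdown against 143785 in control, a log2 ratio of −0.37. Dmp1 had 3025 counts (2918 to 3135) in the library labelled knockdown against 2284 (2191 to 2380) in control, a log2 ratio of 0.59. Over all genes tested, 48.9% were higher and 51.1% lower in the library labelled knockdown on day 10.

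Set beside day 5 in the same condition, the genes parted. Ibsp on day 10 stood at 0.330 of its day 5 mean in the library labelled knockdown and 0.263 in control. Spp1 stood at 2.61 times its day 5 mean in the library labelled knockdown and 2.01 times in control. Dmp1 stood at 2.5 times its day 5 mean in the library labelled knockdown and 0.942 times in control. Each of these day 10 values lay outside both day 5 values of its condition, which a single library can do without a change in level. Dmp1 in control only just did so, at 117 CPM against 129 and 120 CPM.

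Ordered by mean CPM, the groups ran differently for each gene. Ibsp was highest in control day 5, followed by control day 10, control day 3, knockdown day 5, knockdown day 10, knockdown day 3, control day 0 and knockdown day 0, with no overlap between neighbours in that order. Spp1 was highest in control day 10, then knockdown day 10. Its next groups, knockdown day 0 and control day 5, overlapped each other, as did knockdown day 5 and knockdown day 3, and control day 0 and control day 3 came last. Dmp1 was highest in knockdown day 10. The libraries of control day 5, knockdown day 0 and control day 10 overlapped in the next places, followed by knockdown day 5 and knockdown day 3, and the overlapping control day 3 and control day 0 came last. For 1 library a group, on day 10, overlap means that its value lay within the 2 values of the neighbouring group.

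Levels of different genes can be set side by side only per length, for which the deposited RPKM (reads scaled by gene length and library size) served. Spp1 was the 12th and 18th highest gene by RPKM in the day 0 libraries labelled knockdown (2432 and 2244 RPKM) and the 61st and 63rd in control (1105 and 1014 RPKM). Ibsp was the 310th and 329th gene in the day 5 libraries labelled knockdown (180 and 159 RPKM) and the 4th and 5th in control (3716 and 3323 RPKM). Dmp1 reached at most 57.5 RPKM, in the knockdown day 10 library, and Mepe at most 0.53 RPKM, in a control day 3 library.

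The make-up of the family differed between conditions. Of the summed RPKM of the 4 genes, Spp1 held 98.2% and 98.3% on day 0, 95.3% and 95.7% on day 3, 86.2% and 87.0% on day 5 and 96.6% on day 10 in libraries labelled knockdown. In control libraries Spp1 held 99.0% and 99.1% on day 0, 50.7% and 41.8% on day 3, 36.8% and 36.7% on day 5 and 81.1% on day 10. Spp1 was thus the bulk of the family in every library labelled knockdown, and in control libraries only on days 0 and 10 clearly so.

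Ibsp held at most 12.1% in any library labelled knockdown, on day 5, against 48.6% and 57.7% on day 3 and 62.5% in both libraries on day 5 in control. The share of Dmp1 was 1.47% to 1.78% in the 7 libraries labelled knockdown and 0.396% to 0.769% in the 7 control libraries, without overlap. This share also follows the levels of Ibsp and Spp1. On day 5 Dmp1 itself had 25.55 and 22.16 RPKM in libraries labelled knockdown against 42.72 and 40.9 RPKM in control. The ratio of Spp1 to Dmp1 in RPKM was 50.1 to 65.1 in all 7 libraries labelled knockdown. In control libraries the same ratio was 229 and 250.4 on day 0, 80.7 and 80.6 on day 3, 51.1 and 47.7 on day 5 and 106 on day 10. These shares are descriptions and were not tested.

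**Figure D3:**
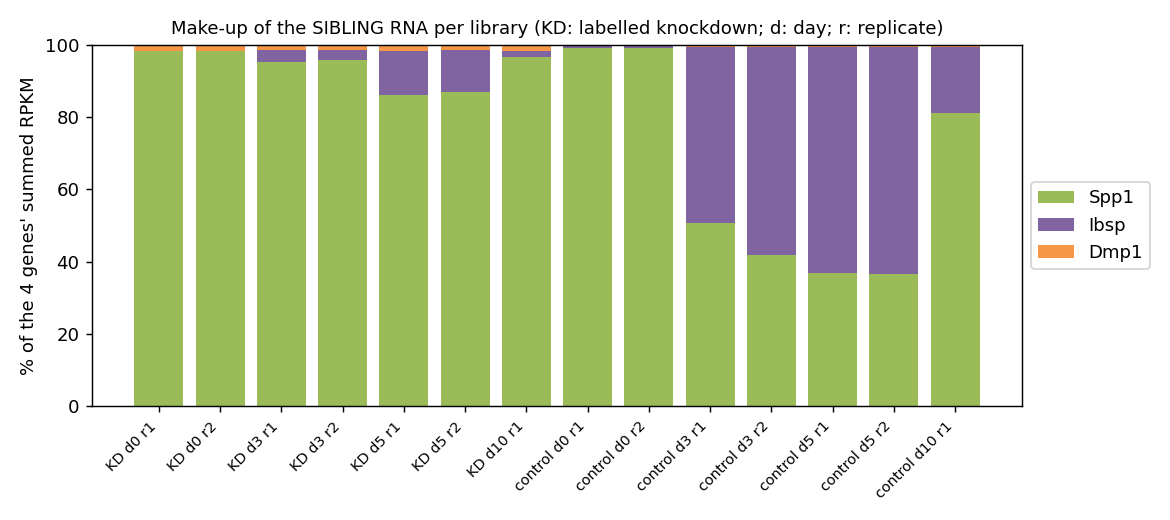
Share of the summed RPKM of Ibsp, Spp1, Dmp1 and Mepe (vertical axis, percent) held by Spp1, Ibsp and Dmp1 in each of the 14 libraries, with the libraries labelled knockdown on the left and control on the right. Mepe, at most 0.0696% in any library, is not drawn. Spp1 holds at least 86.2% in every library labelled knockdown, against 36.7% to 99.1% in control.

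Across the 14 libraries, log2(CPM + 1) of Spp1 and Dmp1 had a Pearson correlation of 0.84 (Spearman 0.92), and 0.80 without control day 3 replicate 2. Ibsp and Mepe gave 0.72 (Spearman 0.79), although Mepe rested on few counts. Ibsp gave −0.06 with Spp1 and 0.15 with Dmp1, and Mepe gave −0.47 with Spp1 and −0.32 with Dmp1. These are descriptions: the libraries share 8 groups and are not independent points. Spp1 and Dmp1 lie at the 2 ends of the cluster, and Ibsp and Mepe lie next to each other.

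Among 9966 other genes with a mean of at least 5 CPM, those whose log2(CPM + 1) was most like that of Ibsp over the 14 libraries were Pth1r (r = 0.980), Ramp1 (0.962) and Lhfpl2 (0.955). Pth1r encodes the receptor of parathyroid hormone, and Ramp1 a partner of the calcitonin receptor-like receptor. Pth1r had 0.869 and 1.46 CPM on day 0, 17.4 and 19.2 CPM on day 3, 49.9 and 56.5 CPM on day 5 and 29.3 CPM on day 10 in libraries labelled knockdown. It had 3.67 and 2.50 CPM on day 0, 108 and 273 CPM on day 3, 345 and 345 CPM on day 5 and 85.5 CPM on day 10 in control libraries. Like Ibsp it peaked on day 5 in both conditions and lay below control in the libraries labelled knockdown at every day. Lhfpl2 overlapped control on day 0, with 36.3 and 41.0 CPM in libraries labelled knockdown against 37.5 and 42.5 CPM in control.

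For Spp1 the most alike genes were F3, the gene of tissue factor (0.938), Apln, which encodes the peptide ligand apelin (0.936), and Itgb3, the beta chain of the osteopontin-binding integrin alpha-v beta-3 (0.934). Itgb3 had 42.1 and 48.7 CPM on day 0, 23.3 and 24.4 CPM on day 3, 29.2 and 28.0 CPM on day 5 and 48.0 CPM on day 10 in libraries labelled knockdown. It had 19.6 and 20.5 CPM on day 0, 14.9 and 15.4 CPM on day 3, 31.2 and 31.9 CPM on day 5 and 62.3 CPM on day 10 in control libraries. As with Spp1, the libraries labelled knockdown lay above control on days 0 and 3 and below it on days 5 and 10. F3 and Apln departed from this course. F3 overlapped control on day 3, with 77.5 and 87.7 CPM in libraries labelled knockdown against 82.7 and 37.0 CPM in control. Apln lay above control on day 10, at 117 against 98.4 CPM. All these genes were picked by correlation over the same libraries, so the likeness is a description only.

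For Dmp1 they were Lrrc15, which encodes a leucine-rich repeat membrane protein (0.946), Prss35, of a serine protease family (0.944), and Ank, a membrane protein in the export of pyrophosphate, an inhibitor of mineralization (0.941). Lrrc15 had 32.7 and 39.6 CPM on day 0, 17.0 and 19.2 CPM on day 3, 20.5 and 20.2 CPM on day 5 and 43.3 CPM on day 10 in libraries labelled knockdown. It had 2.40 and 1.88 CPM on day 0, 4.56 and 7.64 CPM on day 3, 30.7 and 25.3 CPM on day 5 and 23.4 CPM on day 10 in control libraries. This gene, too, lay above control on days 0, 3 and 10 and below it on day 5. Ank overlapped control on day 5, with 98.9 and 105.6 CPM in libraries labelled knockdown against 94.1 and 99.6 CPM in control. For Mepe they were Peo1 (0.930), Ddx41 (0.929) and Tbrg1 (0.924), genes of helicases and of a growth regulator, and the likeness is to a gene of at most 15 counts. Correlations over 0.9 were found with 37 genes for Ibsp, 11 for Spp1, 7 for Dmp1 and 8 for Mepe.

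Receptors of these proteins, integrin chains and Cd44, were 11 listed genes, 9 of them tested. On day 0, 1 was called higher and 1 lower, on day 3, 2 higher and none lower, and on day 5, 1 higher and none lower, with medians of the log2 fold change of −0.08, 0.63 and 0.07. Over all genes tested the medians were 0.03, 0.01 and 0.01. Of all genes tested, 4.41%, 7.06% and 5.32% were called higher and 2.68%, 5.52% and 2.47% lower on these days. Neither this list nor those below were tested as a set. Itgb3 was higher on day 0 (log2 fold change 1.18, SE 0.16, adjusted p = 0.00132) and on day 3 (0.65, SE 0.16, adjusted p = 0.0288) and stood at −0.14 on day 5 (adjusted p = 0.689). Its partner chain Itgav did not pass at any of these days (−0.79, 0.13 and −0.07, SE 0.43, adjusted p 0.373 to 0.956), although on day 0 it did without control day 3 replicate 2 (−0.78, adjusted p = 0.0295). Itga9, the alpha chain of another osteopontin-binding integrin, was higher on day 5 (1.51, SE 0.33, adjusted p = 0.0222), with 9.59 and 10.2 CPM in libraries labelled knockdown against 3.35 and 3.58 CPM in control. The hyaluronan receptor Cd44, which also binds osteopontin, stood at −0.41, −0.24 and 0.07 (adjusted p 0.312 to 0.901; 0.0469 on day 0 without control day 3 replicate 2). The other calls were Itga8, lower on day 0, and Itga5, higher on day 3, both named after their values were seen. DESeq2 gave 2 higher and 2 lower, 2 and 0, and 1 and 0 on the 3 days, and an unadjusted p under 0.05 gave 3 and 2, 2 and 1, and 2 and 0. Over all genes DESeq2 called 1469, 2804 and 1607, and the replicate block 1114, 1864 and 1277. For the unadjusted p no share over all genes is given, here or for the lists below. Counts without control day 3 replicate 2, here and below, stand against the larger shares of all genes called in that fit, given further above. Without control day 3 replicate 2 the edgeR counts were 3 higher and 4 lower, 2 and 1, and 2 and 0.

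Enzymes that phosphorylate, dephosphorylate, cleave or cross-link these proteins, with the kinase partner Fam20a, made a list of 20 genes, 19 with a row and 13 tested. They were called higher 3, 4 and 5 times on days 0, 3 and 5 and lower 0, 0 and 1 times, with medians of 0.30, 0.17 and 0.14. Of all genes tested, 4.41%, 7.06% and 5.32% were called higher and 2.68%, 5.52% and 2.47% lower on these days. Phex, an endopeptidase of osteocytes and osteoblasts that cleaves the acidic peptide of matrix extracellular phosphoglycoprotein and osteopontin, was higher at all 3 days (log2 fold change 2.73, 4.33 and 3.71, adjusted p 0.0021, 9.69e-05 and 0.000144). On day 5 it had 25.0 and 22.7 CPM in libraries labelled knockdown against 2.18 and 1.40 CPM in control. Mmp13, a collagenase, was also higher at all 3 days (2.48, 4.03 and 3.47, adjusted p 0.000797, 9.02e-05 and 0.000152), with 539 and 463 CPM on day 5 in libraries labelled knockdown against 45.9 and 44.4 CPM in control. Tgm2, a transglutaminase that cross-links osteopontin, was higher on day 5, with 65.4 and 64.1 CPM in libraries labelled knockdown against 24.8 and 24.8 CPM in control (1.39, SE 0.17, adjusted p = 0.000762). Tgm2 was also higher on day 3 (2.42, adjusted p = 8.35e-05) and did not pass on day 0 (0.33, adjusted p = 0.304). Fam20c, the kinase that phosphorylates secreted proteins of this family, did not pass (0.56, 0.04 and −0.20, adjusted p 0.107 to 0.897), although on day 0 it did without control day 3 replicate 2 (0.56, adjusted p = 0.00119). The 1 lower call on day 5 was Fam20a, a partner of that kinase (−1.35, SE 0.23, adjusted p = 0.00676), named after its value was seen. DESeq2 gave 3 higher and 1 lower, 5 and 1, and 5 and 1, and an unadjusted p under 0.05 gave 4 and 2, 6 and 2, and 5 and 1. The edgeR counts without control day 3 replicate 2 were 5 higher and 3 lower, 5 and 0, and 6 and 1, and the replicate block gave 5 higher and 2 lower on day 5. The epithelial marker sum given above also differed between conditions beside these genes, and its part was not tested.

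Transcription factors known to act on the promoters or enhancers of these genes, with the coactivator Ctnnb1, made a list of 23 genes, all tested. None was called on day 0 in edgeR, 2 were called higher and 6 lower on day 3, and 1 higher and 5 lower on day 5, with medians of −0.25, −0.35 and −0.33. Of all genes tested, 4.41%, 7.06% and 5.32% were called higher and 2.68%, 5.52% and 2.47% lower on the 3 days. Runx2, the factor that sets the osteoblast lineage, was lower on day 3 (log2 fold change −0.80, SE 0.18, adjusted p = 0.0217) and stood at −0.65 on day 0 (adjusted p = 0.0576) and −0.37 on day 5 (adjusted p = 0.271). Those 2 differences passed without control day 3 replicate 2 (adjusted p 0.00266 and 0.0354). Sp7, which acts downstream of it, did not pass (−0.20, −0.31 and −0.33, adjusted p 0.351 to 0.710). Lef1, a factor of the Wnt pathway, was lower on day 5, with 2.94 and 3.16 CPM in libraries labelled knockdown against 18.0 and 18.2 CPM in control (−2.57, SE 0.30, adjusted p = 0.000656). Mef2c was lower on day 5, with 40.1 and 39.2 CPM in libraries labelled knockdown against 172 and 177 CPM in control (−2.14, SE 0.23, adjusted p = 0.000482). Vdr, the vitamin D receptor, whose ligand raises Spp1 in osteoblasts, was higher on day 5, with 86.3 and 92.5 CPM in libraries labelled knockdown against 24.7 and 24.7 CPM in control (1.85, SE 0.24, adjusted p = 0.00131). Lef1 (−2.05, adjusted p = 0.00363), Mef2c (−1.77, adjusted p = 0.00158) and Vdr (2.04, adjusted p = 0.00111) were called in the same directions on day 3. None of them passed on day 0 (−1.03, −0.39 and 0.79, adjusted p 0.0786 to 0.396). The other lower calls on day 5 were Dlx3, Ets1 and Tcf7, named after their values were seen. On day 0, DESeq2 gave 1 higher and 4 lower and the replicate block 0 and 3, where they called 1469 and 1114 of all genes. An unadjusted p under 0.05 gave 2 and 7, for which no share over all genes is given. The counts that follow stand against the larger shares of all genes called in that fit, given further above. Without control day 3 replicate 2 the counts were 3 higher and 9 lower, 3 and 8, and 4 and 9.

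**Figure D4:**
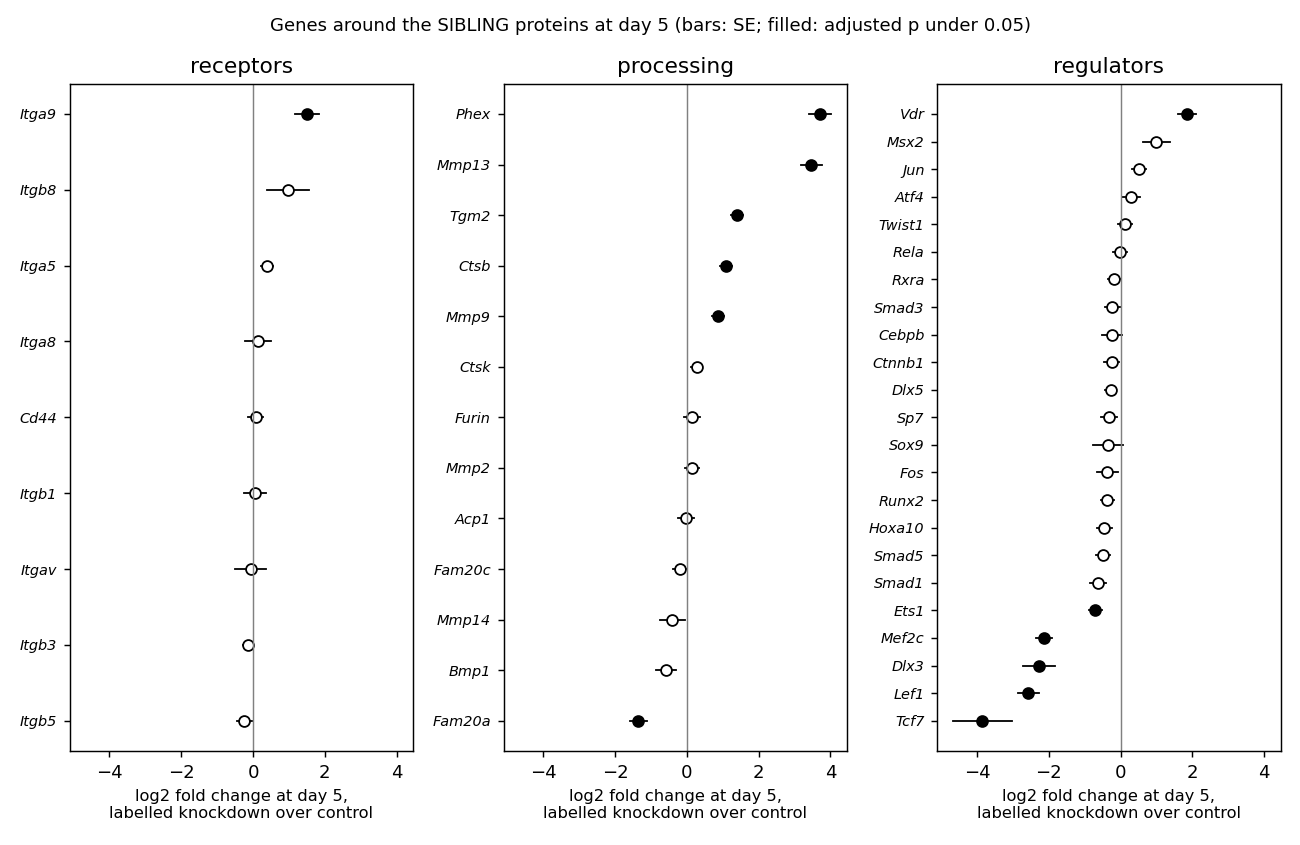
Log2 fold change of libraries labelled knockdown over control on day 5 (horizontal axis) for each tested gene of the lists of receptors, processing enzymes and transcription factors with Ctnnb1 (regulators), with bars of 1 SE and filled points for an adjusted p under 0.05. Phex (3.71) and Mmp13 (3.47) lie farthest to the right among the processing enzymes, and the transcription factors hold 5 called points to the left and 1 to the right.

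Genes placed within 1 Mb of the cluster numbered 31 besides the 4, and 16 of them were tested. On day 0, 1 was called higher and none lower, on day 3, 2 higher and 2 lower, and on day 5, 3 higher and none lower, with medians of −0.04, 0.15 and −0.05. Of all genes tested, 4.41%, 7.06% and 5.32% were called higher and 2.68%, 5.52% and 2.47% lower on these days. Sparcl1, a matrix protein gene next to Dspp and an evolutionary relative of the family, stood at −0.07 and 1.03 on days 0 and 3 (adjusted p 0.952 and 0.105; 0.45 and 0.0489 on day 3 without control day 3 replicate 2) and was higher on day 5 (log2 fold change 1.62, SE 0.39, adjusted p = 0.0339). On day 5 it had 434 and 369 CPM in libraries labelled knockdown against 133 and 128 CPM in control, while Ibsp, 185.4 kb away by start position, was lower. Pkd2, the next gene beyond Spp1, did not pass (−0.20, 0.64 and −0.14, SE 0.60, adjusted p 0.486 to 0.938), and its day 3 value was −0.16 without control day 3 replicate 2 (adjusted p = 0.292). DESeq2 gave 1 higher and 1 lower, 3 and 2, and 4 and 0, and an unadjusted p under 0.05 gave 3 and 3, 3 and 2, and 5 and 1. Without control day 3 replicate 2 the counts in edgeR were 1 higher and 4 lower, 3 and 3, and 5 and 2.

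**Figure D5:**
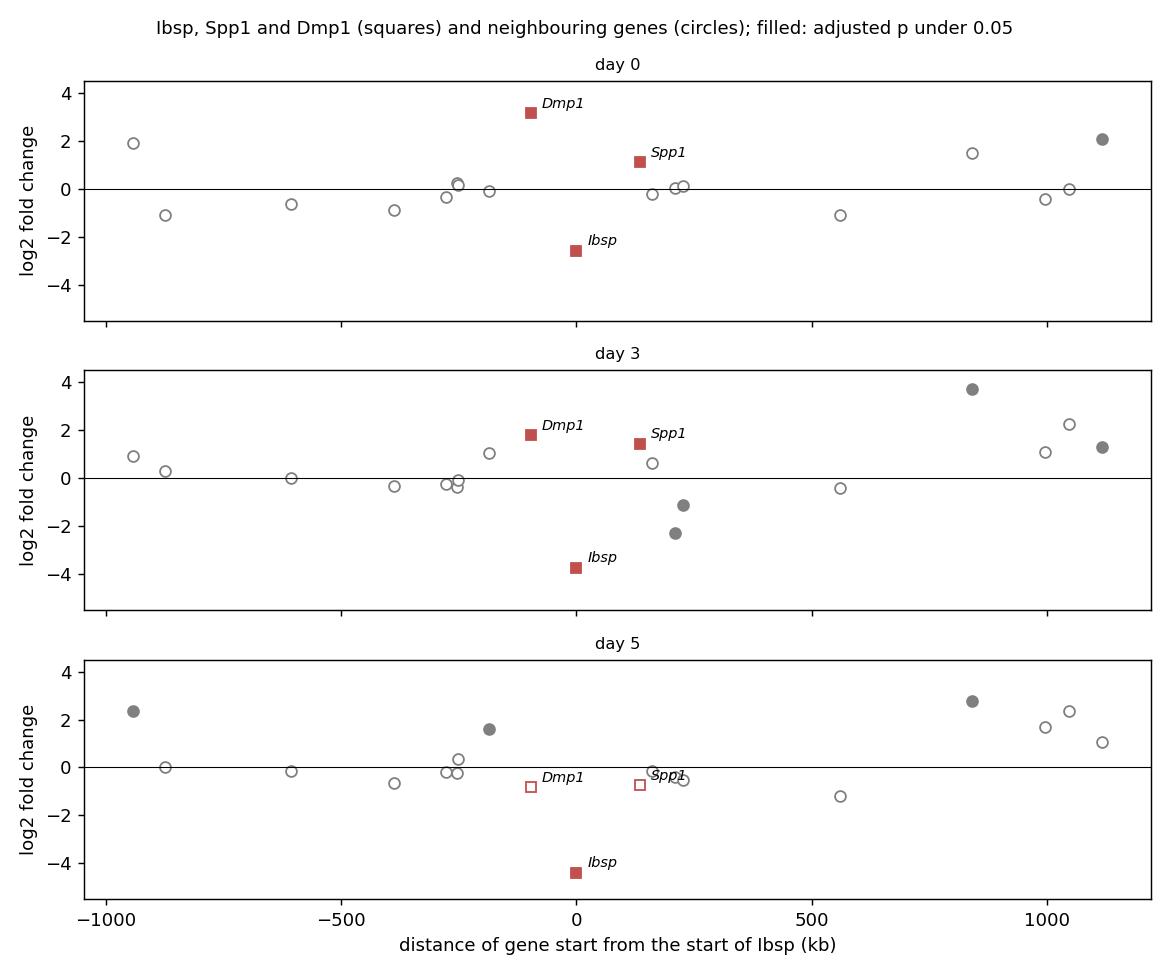
Log2 fold change of libraries labelled knockdown over control (vertical axis) on days 0, 3 and 5 against the distance of each gene's start from that of Ibsp (horizontal axis, kb), for Ibsp, Spp1 and Dmp1 and for the tested genes within 1 Mb of the cluster, filled where the adjusted p was under 0.05. On day 5 Ibsp lies at −4.39, between Dmp1 at −0.82 and Spp1 at −0.74.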

How the data were processed

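The 14 RNA-seq libraries of MC3T3-E1 cells were put into groups from the labels (condition, day). Per the labels' protocols, polyadenylated RNA was made into strand-specific libraries. The tools bcl2fastq, TopHat2 and edgeR and the build GRCm38 come from the submitters' processing notes; which tool counted the reads, on which strand and with which annotation is not given in the sources used here. Raw counts of 24346 genes and RPKM of 24340 genes were deposited by the authors.

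The rows of Ibsp, Spp1, Dmp1 and Mepe were taken by symbol. Tests were fitted to the deposited counts of every gene that reached 10 counts in 2 libraries or more (13130 genes; 11216 were left out), in edgeR 4.0.16 (R 4.3.3), with TMM scaling, 1 mean for each of 8 groups, a robust quasi-likelihood F test with 6 residual degrees of freedom, and Benjamini-Hochberg adjustment over all genes tested at a threshold of 0.05. All groups share 1 estimate of the spread. Intervals are at the 95% level. At day 10 (1 library a condition) no test was made; log2 ratios of the 4 genes use no pseudocount, and the share of all genes past 4-fold uses 0.5 CPM. Poisson intervals cover counting error only, since PCR copies of molecules are not told apart. The labels call the 2 libraries of a group biological replicates without naming separate cultures, so the p-values rest on the spread between them, which may be technical.

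Alternatives were DESeq2 1.42.0, library totals without TMM, library sizes without the 4 genes, no filter, limma 3.58.1 on log2(RPKM + 1) and log2(RPKM + 0.1), the replicate number as a block, only the groups compared, and each of 12 libraries of days 0, 3 and 5 left out. Chi-square statistics per degree of freedom between replicates were 12.7 to 38.3 in 5 replicate pairs and 175 between the day 3 control libraries, and none was merged into 1. Same-numbered libraries of the conditions deviated together from their group means across genes (correlation 0.392, 0.163 and 0.389 at days 0, 3 and 5), which met the criterion for pairing, from the data and not from the labels; the reported fit has no term for the pairs, and the replicate block is an alternative; libraries of different days gave 0.022 to 0.462. The fits were tested on simulated counts.

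Members, gene lists and the naming rule were chosen with earlier results of these data known. The genes named were the 4 members, Dspp, Macf1, 9 others by name, the 3 genes most correlated with each member among those of at least 5 CPM, and up to 3 genes of each list called at day 5 with a mean of at least 5 CPM, by size of change. Coordinates come from GENCODE M21 and promoters from RefSeq GRCm38.p6, where each of the 4 symbols matched; for Spp1 and Dmp1, with 2 windows each, the one nearest the GENCODE start was taken.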

Additional observations from a re-analysis of the deposited data

Results flagged for a closer look

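The difference between libraries labelled knockdown and control was not the same on days 0, 3 and 5 for Spp1 (adjusted p = 0.0284) and for Dmp1 (adjusted p = 0.00165) in the joint edgeR interaction test over all genes tested, and this difference between days is why both are listed. For Spp1 the log2 fold change was 1.10, 1.44 and −0.74 on these days. For Dmp1 it was 3.16, 1.80 and −0.82.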

How the results depend on the processing

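The 40 results of the 4 genes were recomputed under 20 other settings. Of 766 values, 661 kept their direction and side of the threshold, 49 passed it only under the alternative, 49 passed it only in the reported fit, and 7 changed sign. The cause of these changes was not tested. The tally includes the results of Mepe, which are descriptions only. Ibsp was lower on days 0 and 5, and Dmp1 higher on day 0, past the threshold under each of the 20 settings.

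With DESeq2, more differences passed: Spp1 on day 5 (−0.75), Dmp1 on day 5 (−0.83), day 3 against day 0 within knockdown for Spp1 (−0.92) and Dmp1 (−1.03), day 5 against day 3 within knockdown for Ibsp (2.17), the day 0 to 3 interaction of Dmp1 (−1.38), the day 3 to 5 interaction of Spp1 (−2.16) and the joint test of Ibsp (0.00347). With no filter the same results passed, at −0.75, −0.82, −0.90, −1.01, 2.16, −1.30, −2.24 and 0.000434. The replicate block let 4 pass, Spp1 on day 5 (−0.74), Dmp1 on day 5 (−0.83), Dmp1 on day 3 against day 0 within knockdown (−1.03) and the day 3 to 5 interaction of Spp1 (−2.20), and changed no other call of the 4 genes. With limma on log2(RPKM + 1), the joint test of Ibsp (0.0138) and Ibsp on day 5 against day 3 within knockdown (2.08) passed, and Spp1 on day 0 did not (1.14). Mepe in control on day 3 against day 0 (0.47) and Mepe on day 5 (−0.34) fell under the threshold in that fit. Since Mepe entered only through control libraries, where it was high, its values are descriptions and not calls. With log2(RPKM + 0.1), Spp1 on day 0 (1.14) and its joint test (0.0578) did not pass. Mepe in control on day 3 against day 0 (1.87) fell under the threshold there, again as a description only. The near-zero change of Spp1 within knockdown on day 5 against day 3 had the other sign without TMM (−0.00) and with both limma fits (−0.02 and −0.02).

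Fitting only the groups compared ended these calls of 2 to 4 groups that included control day 3: Ibsp, Spp1 and Dmp1 on day 3 (−3.73, 1.43 and 1.80), Ibsp and Spp1 in control on day 3 against day 0 (6.5 and −1.24), Ibsp, Spp1 and Dmp1 in control on day 5 against day 3 (2.82, 2.22 and 2.91), and the day 3 to 5 interaction of Dmp1 (−2.62). The same setting let pass Spp1 and Dmp1 on day 5 (−0.74 and −0.82) and, within knockdown, Spp1 and Dmp1 on day 3 against day 0 (−0.91 and −1.02) and Ibsp on day 5 against day 3 (2.16). The joint calls of Dmp1 and Spp1 stayed. For the joint test only the day 10 libraries, 1 a condition, are left out, so this is no separate check.

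Leaving out 1 library at a time moved the log2 fold changes on day 0 of Spp1 to between 1.01 and 1.19, on day 3 of Spp1 to between 1.13 and 1.82 and of Mepe to between −7.02 and −3.67, and on day 5 of Spp1 to between −0.84 and −0.65 and of Dmp1 to between −0.93 and −0.72. In control on day 3 against day 0 the ranges were −1.64 to −0.94 for Spp1 and −0.08 to 0.63 for Dmp1, with −0.08 without control day 3 replicate 1. Within knockdown they were −1.0 to −0.84 for Spp1 and −1.18 to −0.89 for Dmp1 on day 3 against day 0, and 2.02 to 2.35 for Ibsp and −0.03 to 0.13 for Spp1 on day 5 against day 3. For the day 0 to 3 interaction they were −1.55 to −0.67 for Ibsp, 0.03 to 0.72 for Spp1, −1.65 to −0.95 for Dmp1 and −4.73 to 0.50 for Mepe, which was 0.48 without control day 0 replicate 1 and 0.50 without knockdown day 3 replicate 1. For the day 3 to 5 interaction they were −2.57 to −1.88 for Spp1 and −3.02 to −2.34 for Dmp1. The adjusted p of the joint test ranged from 0.00574 to 0.761 for Ibsp and from 5.39e-06 to 0.219 for Spp1. Where an alternative left Mepe at 0 counts in a whole group, no value was taken.

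Leaving out either control library of day 3 raised the number of genes called in all 10 comparisons; the common dispersion was 0.0474, and 0.0115 without replicate 2. In knockdown against control on day 0 it was 931, with 1469 by DESeq2, 3463 with only the groups compared and 367 to 3750 on leaving out a library. On day 3 it was 1652, with 2804 by DESeq2, 2827 with no filter, 0 with only the groups compared and 358 to 7706 on leaving out a library. On day 5 it was 1022, with 1607 by DESeq2, 3607 with only the groups compared and 337 to 4123 on leaving out a library. In control on day 3 against day 0 it was 1411, with 2578, 2538 and 0 (DESeq2, no filter, only the groups compared) and 197 to 7176. In control on day 5 against day 3 it was 136, with 542, 1150 and 0 and 32 to 7061. Within knockdown on day 3 against day 0 it was 119, with 460, 334 and 1436 and 13 to 1937. Within knockdown on day 5 against day 3 it was 2, with 16, 20 and 11, 1 without TMM, 1 with limma on log2(RPKM + 0.1), and 0 to 72. For the day 0 to 3 interaction it was 38, with 251, 412 and 0, 63 with limma on log2(RPKM + 1), and 1 to 5966. For the day 3 to 5 interaction it was 14, with 82, 197 and 3, 37 with limma on log2(RPKM + 1), and 3 to 5892. For the joint test it was 131, with 432 and 643 (DESeq2, no filter) and 43 to 6508. Mepe, at 15 counts or fewer, is limited by depth.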
